A study of Mus musculus with 12 samples.

Results

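The 2 mouse miRNAs mmu-miR-103-3p and mmu-miR-107-3p were taken by name from a table of 932 rows, 730 of which carry a miRNA name. Both passed the filter on low values, a mean of at least 1 RPM (reads scaled to a library total of 1000000), together with 644 other rows. Library totals here are sums over the 932 rows, so reads outside those rows are not in them. The libraries hold small RNA of heart mitochondria, 6 from wild-type (WT) and 6 from db/db mice. Mice of the db/db genotype are obese and diabetic because their leptin receptor is defective. The labels give no age, sex, strain or treatment, and do not state whether each library is 1 animal. All p-values below therefore speak of the spread among these libraries, part of which may be technical.

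miR-103 and miR-107 are processed from hairpins in introns of the pantothenate kinase genes, whose enzymes carry out the first step of coenzyme A synthesis. In liver and adipose tissue the pair is known to lower insulin sensitivity, with caveolin-1, a membrane protein that stabilises the insulin receptor, as a described target. In cardiomyocytes it is known to act on the adaptor protein FADD. No other fraction of the heart was among the libraries, so enrichment in mitochondria was not tested, and fewer cells of a type cannot be told apart from less RNA per cell.

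The mature 3p sequences explain why the pair is treated together. They are shown 5′ to 3′ from RefSeq (GRCm38.p6 table), first with the seed, bases 2 to 8, in capitals, and then with the differing base in capitals.
mmu-miR-103-3p: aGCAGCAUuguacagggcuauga
mmu-miR-107-3p: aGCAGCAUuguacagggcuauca
mmu-miR-103-3p: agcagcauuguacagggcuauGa
mmu-miR-107-3p: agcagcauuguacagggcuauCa
Both are 23 bases long and identical at 22 of them. The only difference, counted from 1 at the 5′ end, is G22C with the miR-103-3p base first, and it lies outside the seed. A read that ends before base 22 could not be assigned to either miRNA by its sequence, and how such reads were counted is not given in the sources used here. No other miRNA among the 1679 mature sequences of the RefSeq table has the seed GCAGCAU.

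In all, 3 hairpins give rise to the pair, and their sequences show that the loci differ mainly outside the mature arms. They are printed with the 5p arm and then the 3p arm in capitals.
Mir103-1: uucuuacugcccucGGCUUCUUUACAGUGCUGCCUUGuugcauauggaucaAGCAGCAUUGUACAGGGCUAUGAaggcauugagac
Mir103-2: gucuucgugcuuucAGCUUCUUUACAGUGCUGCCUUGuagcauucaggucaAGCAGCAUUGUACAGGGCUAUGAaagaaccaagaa
Mir107: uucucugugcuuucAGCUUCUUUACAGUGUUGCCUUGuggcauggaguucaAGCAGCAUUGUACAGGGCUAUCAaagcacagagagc
In GRCm38.p6, Mir103-1 lies at chr11:35782396-35782481 on the plus strand in an intron of Pank3, and Mir103-2 at chr2:131288052-131288137 on the plus strand in an intron of Pank2. Mir107 lies at chr19:34820687-34820773 on the minus strand in an intron of Pank1. Each hairpin has the orientation of its host gene and sits in intron 5 of a principal transcript with 7 exons (GENCODE M21). Aligned over their whole length, the Mir103-1 and Mir103-2 hairpins were 80.2% identical, Mir103-1 and Mir107 80.5%, and Mir103-2 and Mir107 83.9%. Both Mir103 loci give the same miR-103-3p, so the table has 1 value for the pair of loci and cannot divide it between Pank3 and Pank2.

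miR-103-3p was an abundant miRNA of these preparations in both genotypes. Its level in WT libraries 1 to 6 was 6741, 7536, 8166, 5678, 5279 and 4779 RPM. In db/db libraries 1 to 6 it was 6941, 6720, 7414, 5447, 5344 and 4778 RPM. The genotypes overlapped over nearly their whole ranges, and within each genotype libraries 1, 2 and 3 were the high ones. By library it ranked between position 24 and position 36 among the 730 named miRNAs, and position 28 by its mean of 6235 ± 1155 RPM (SD, n = 12).

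miR-107-3p was present at a much lower level, with the same overlap of genotypes. Its level in WT libraries 1 to 6 was 869, 1003, 959, 767, 727 and 640 RPM. In db/db libraries 1 to 6 it was 1021, 952, 892, 870, 772 and 492 RPM. The lowest value of all 12, in db/db library 6, rested on 203 reads in the library with the fewest reads. miR-107-3p ranked between position 65 and position 90 by library and position 68 by its mean of 830 ± 158 RPM (SD, n = 12).

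Neighbours in the order of mean level did not stand apart from either miRNA. miR-191-5p, the next above miR-103-3p, averaged 6438 ± 520 RPM and exceeded it in 6 of 12 libraries, and miR-378c, the next below at 5892 ± 823 RPM, exceeded it in 5 (SD, n = 12). miR-199a-5p, next above miR-107-3p at 866 ± 189 RPM, exceeded it in 7 libraries, and miR-195a-5p, next below at 783 ± 240 RPM, did so in 6 (SD, n = 12).

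**Figure D1:**
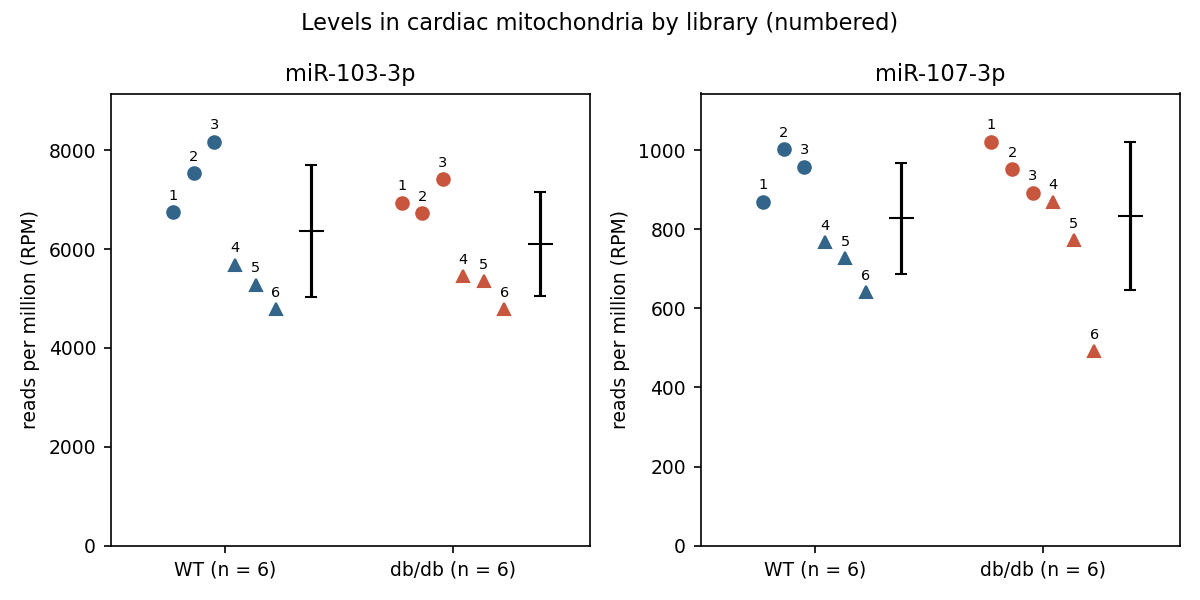
Levels of miR-103-3p (left) and miR-107-3p (right) in RPM in each library, by genotype, with the library number above each point, circles for numbers 1 to 3, triangles for 4 to 6, and the mean with SD (n = 6) in black. miR-103-3p spans 4779 to 8166 RPM in WT and 4778 to 7414 RPM in db/db libraries, and all circles in that panel lie above all triangles.

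The comparison between genotypes asked whether the pair differs in cardiac mitochondria of this diabetic model. WT libraries averaged 6363 ± 1336 RPM of miR-103-3p and db/db libraries 6107 ± 1055 RPM (SD, n = 6 per genotype). The log2 difference, db/db minus WT, was -0.05 ± 0.14 (SE; limma adjusted p = 0.899). Its 95% interval ran from -0.33 to 0.23, or from 0.794-fold to 1.17-fold of WT. Of the db/db libraries 3 of 6 lay below the WT median. Differences inside that interval, in either direction, remain compatible with these libraries. The interval is not adjusted for the number of rows tested, so it is no limit of what could have been called.

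For miR-107-3p the WT mean was 827 ± 140 RPM and the db/db mean 833 ± 187 RPM (SD, n = 6 per genotype). Its log2 difference, db/db minus WT, was -0.01 ± 0.18 (SE; limma adjusted p = 0.987), with a 95% interval from -0.37 to 0.35, or from 0.773-fold to 1.28-fold of WT. Of the db/db libraries 2 of 6 lay below the WT median. Without db/db library 6 the log2 difference was 0.13 (limma adjusted p = 0.765). Of all 646 rows tested, limma called 1, or 0.155%, and neither member of the pair was called. Counts of recovered reads gave 3 calls by edgeR, or 0.464%, and 8 by DESeq2, or 4.71% of the 170 rows with an adjusted p from that tool, again with neither of the pair, both of which had one. The other 476 rows had none. The sign of both differences turned with the scaling: after median-of-ratios scaling they were 0.010 for miR-103-3p and 0.05 for miR-107-3p. With both rows summed to 1, the log2 difference was -0.04 ± 0.14 (SE; limma adjusted p = 0.912). The pair's share of the reads counted in all rows was 0.719% ± 0.147 for WT and 0.694% ± 0.121 for db/db (SD, n = 6 per genotype).

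Counting error was a small part of the spread in level. Between 1972 and 7386 reads per library stood behind miR-103-3p, and between 203 and 1067 behind miR-107-3p. For miR-103-3p the coefficient of variation between libraries was 21.0% in WT and 17.3% in db/db, against at most 1.56% from counting reads. For miR-107-3p it was 17.0% and 22.4%, against 4.12% and 4.40% from counting. Library totals, summed over all rows, ranged from 412749 to 1382046 reads.

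The balance between the near-identical sequences was measured as the share of miR-107-3p in the reads of both, which does not depend on how a library is scaled. In WT libraries 1 to 6 the share was 11.4, 11.7, 10.5, 11.9, 12.1 and 11.8%. In db/db libraries 1 to 6 it was 12.8, 12.4, 10.7, 13.8, 12.6 and 9.33%. The db/db libraries had both the highest and the lowest share, and their values enclosed those of WT. The 95% Wilson interval of db/db library 4, 12.8 to 14.8%, and that of db/db library 6, 8.18 to 10.6%, did not overlap. These intervals cover counting error only, since copies made by PCR are not independent molecules.

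Expressed as a ratio, each read of miR-107-3p was matched by 7.65 ± 0.454 reads of miR-103-3p for WT and 7.51 ± 1.27 for db/db (SD, n = 6 per genotype). The coefficient of variation of this ratio was 5.93% in WT, beside 4.39% from counting reads, and 17.0% for db/db, beside 4.67%. The log2 ratio of miR-107-3p to miR-103-3p, db/db minus WT, was 0.04 (two-sided exact permutation p = 0.703). Its 95% interval, by inversion of that test, ran from -0.17 to 0.25. Without db/db library 6 it was 0.12 (exact permutation test, two-sided, p = 0.143). Within libraries 1 to 3 it was 0.11 (exact permutation test, two-sided, p = 0.400) and within 4 to 6 it was -0.02 (exact permutation p = 1), where 3 against 3 libraries cannot go below 0.10.

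**Figure D2:**
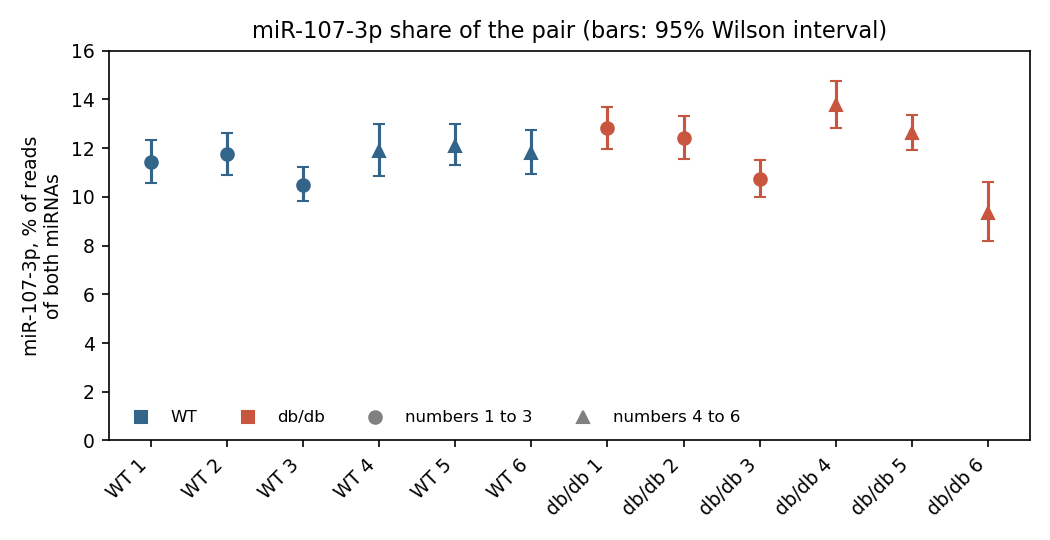
Share of miR-107-3p in the reads of miR-103-3p and miR-107-3p together, in percent, for each library, with 95% Wilson intervals as bars, colours for genotype and symbols for library number. WT shares lie between 10.5 and 12.1%, and db/db shares between 9.33 and 13.8%.

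Levels of the pair rose and fell together from library to library. On the scale log2(RPM + 1) Pearson's r was 0.84 over 12 libraries (permutation test, 100000 resamples, p = 0.00029, adjusted over both coefficients 0.00038) and Spearman's rho was 0.88 (permutation p = 0.00038, adjusted 0.00038). Without WT library 3 and db/db library 6, the 2 farthest from the median of miR-103-3p, r was 0.88 (permutation p = 0.00104). It was 0.97 within WT (rho 0.94; exact permutation p = 0.00417 and 0.0167) and 0.80 within db/db libraries (rho 0.83; exact permutation p = 0.0181 and 0.0583). Within libraries 4 to 6 of both genotypes r was 0.83 (exact permutation p = 0.0236), but within libraries 1 to 3 it was 0.20 (exact permutation p = 0.688). The relation was thus not seen within libraries 1 to 3. With 6 libraries spanning 6720 to 8166 RPM of miR-103-3p, that coefficient cannot show that it is absent there. The pooled and within-genotype coefficients take in libraries 1 to 3 and 4 to 6 alike, and these differ in the mean level of both miRNAs. Their permutations do not keep that division. In each library the levels of the pair share a total and may share reads.

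**Figure D3:**
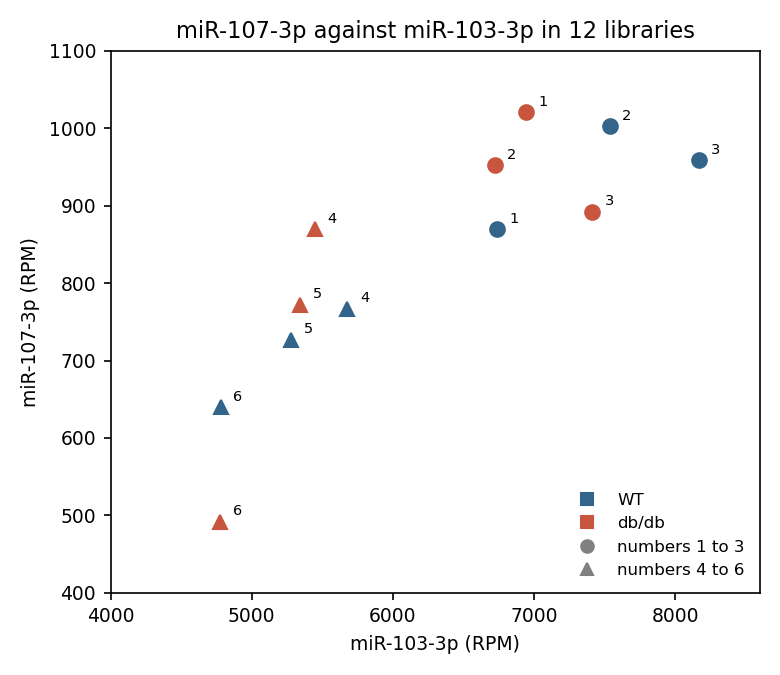
Level of miR-107-3p against that of miR-103-3p, both in RPM, in the 12 libraries, with colours for genotype and symbols for library number; neither axis starts at 0. Libraries 1 to 3 form the upper right group, at 6720 RPM of miR-103-3p and above, and libraries 4 to 6 the lower left group, at 5678 RPM and below.

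Library number, rather than genotype, went with the level of miR-103-3p. Libraries 1 to 3 of both genotypes held 6720 to 8166 RPM and libraries 4 to 6 held 4778 to 5678 RPM, with no overlap. The mean was 1.39 times higher in 1 to 3. It was 7481 ± 714 against 5245 ± 450 RPM in WT, and 7025 ± 354 against 5190 ± 361 RPM for db/db (SD, n = 3 each). Of all 646 rows tested, 0.31% had every library of 1 to 3 above every library of 4 to 6: miR-103-3p and miR-320-3p. Rows divided in the opposite direction are not in that share. This grouping was known from earlier results of these data and is no label of the study, so no p is given for it. The labels name no batch.

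For miR-107-3p the same division gave 869 to 1021 RPM in libraries 1 to 3 and 492 to 870 RPM in 4 to 6. The ranges touched at a single point: db/db library 4, at 870 RPM, lay just above WT library 1, at 869 RPM. The mean was 1.33 times higher in 1 to 3. After median-of-ratios scaling the mean ratios were 1.33 for miR-103-3p and 1.27 for miR-107-3p, and the miR-103-3p ranges still did not overlap. Library totals overlapped, at 633335 to 801118 reads in 1 to 3 and 412749 to 1382046 reads in 4 to 6. Within libraries 1 to 3 the log2 difference of db/db minus WT was -0.09 for miR-103-3p and 0.02 for miR-107-3p, and within 4 to 6 it was -0.01 and -0.04.

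Marker miRNAs of other cell types were also summed in these divisions. The 5 heart muscle markers summed to 375711 to 420533 RPM in libraries 1 to 3 and 337995 to 439553 RPM in 4 to 6. For the 5 red blood cell markers the sums were 34738 to 53931 and 18648 to 58147 RPM, and for the 3 endothelial markers 16719 to 25863 and 19169 to 30425 RPM. In the red blood cell list miR-486a-5p and miR-486b-5p averaged 18574 and 18941 RPM over all libraries. There miR-451a averaged 1528 RPM, miR-144-5p 35.6 RPM and miR-144-3p 8.69 RPM, so that sum mainly follows the 2 miR-486 rows. Whether these 2 rows, near equal in mean, hold the same reads was not tested. The 6 fibroblast and smooth muscle markers summed to 25028 to 38458 and 31222 to 47868 RPM, and the 5 leukocyte markers to 3959 to 5340 and 2981 to 6769 RPM. The sums other than that of red blood cells mainly follow 1 row each. Over all libraries miR-133a-3p of heart muscle averaged 332510 RPM and miR-126a-3p of endothelium 19921 RPM. miR-143-3p of fibroblast and smooth muscle averaged 25457 RPM and miR-150-5p of leukocytes 3883 RPM. The liver miRNA miR-122-5p reached at most 27.5 RPM and was at 0 in some libraries. Every one of these ranges overlapped between the divisions, and their part in the levels of the pair was not tested. Between the genotypes limma called none of the markers. Median log2 differences, db/db minus WT, were -0.25 for heart muscle, 0.53 for red blood cells and -0.11 for endothelium. They were -0.35 for fibroblast and smooth muscle and 0.16 for leukocytes, beside -0.04 over all rows tested. Signs were mixed in each of these lists. Heart muscle ran from -1.34 (miR-208a-3p) to 1.09 (miR-208b-3p), and endothelium from -0.30 (miR-126a-3p) to 0.08 (miR-139-5p). Fibroblast and smooth muscle ran from -0.48 (miR-143-3p) to 0.45 (miR-214-3p), and leukocytes from -0.91 (miR-142a-3p) to 0.28 (miR-155-5p). The red blood cell median is the value of miR-486a-5p itself. miR-486b-5p also had 0.53, which is not taken as separate support, since its mean nearly equals that of miR-486a-5p. In that list miR-144-5p went the other way, with -0.53 ± 0.63 (SE). miR-451a had 0.26 ± 0.27, while 0.60 ± 0.87 was found for miR-144-3p (SE). Whether red blood cell content differs between the genotypes was not tested.

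miRNAs with the pattern most like that of miR-103-3p were ranked by Pearson's r of log2(RPM + 1) over the 12 libraries, among 145 other named miRNAs with a mean of at least 100 RPM. The 5 highest were miR-1839-5p (0.86), miR-107-3p (0.84), miR-199b-5p (0.81), let-7j (0.76) and miR-320-3p (0.75). For miR-107-3p they were miR-103-3p (0.84), miR-133a-3p (0.72), miR-1839-5p (0.72), let-7i-5p (0.70) and let-7j (0.70). After median-of-ratios scaling the 5 of miR-103-3p kept their order. For miR-107-3p that scaling left miR-103-3p first but moved miR-133a-3p to position 6 (0.67) and miR-1839-5p to position 5 (0.67). Each of the pair thus stood first or second in the ranking of the other. These coefficients are a description over libraries that share a total in each column.

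The opposite arms of the hairpins were nearly absent. Their mature sequences, with bases 2 to 8 in capitals, differ by single bases and show which locus a read would name.
mmu-miR-103-1-5p: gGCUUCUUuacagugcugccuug
mmu-miR-103-2-5p: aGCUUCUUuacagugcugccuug
mmu-miR-107-5p: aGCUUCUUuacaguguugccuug
The difference of miR-103-1-5p from miR-103-2-5p is G1A, and that of miR-103-2-5p from miR-107-5p is C16U, the first-named base first. Over all 12 libraries 32 reads were counted for the 5p arms and 65088 for the 3p arms, a 5p share of 0.0491% (exact 95% interval 0.0336 to 0.0694%, counting error only).

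miR-103-2-5p had 4 reads in WT library 4, 2 in WT library 5 and 18 in db/db library 5, and 0 in the other 9. Together the WT libraries thus held 6 reads (mean 1.55 RPM) and the db/db libraries 18 (mean 2.17 RPM). Its overall mean of 1.86 RPM just passed the filter, and with 0 reads in 9 libraries no fold is given. miR-107-5p had 7 reads, all in WT library 6, and miR-103-1-5p had 1 read, in WT library 5; both fell below the filter. A count of 0 allows up to 2.17 to 7.27 RPM, depending on the library. At this depth the 5p reads do not show which of the 2 Mir103 loci supplied miR-103-3p.

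Related miRNAs carry the same 6 bases shifted by 1 position. AGCAGC, searched in the mature sequences as written, begins at base 1 in the pair and at base 2 in the miR-15 and miR-16 family, whose members are best known for restraining the cell cycle and cell survival through targets such as BCL2. All 7 relatives in the expression table are shown, with the seed in capitals, to set their shared start beside that of the pair.
mmu-miR-16-5p: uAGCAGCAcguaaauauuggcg
mmu-miR-15b-5p: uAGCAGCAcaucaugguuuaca
mmu-miR-15a-5p: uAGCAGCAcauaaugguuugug
mmu-miR-195a-5p: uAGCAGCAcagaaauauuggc
mmu-miR-322-5p: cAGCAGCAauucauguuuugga
mmu-miR-497a-5p: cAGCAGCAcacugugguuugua
mmu-miR-503-5p: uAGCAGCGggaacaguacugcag
Of the 635 miRNAs found both in the expression table and in RefSeq, 9, or 1.42%, hold AGCAGC within the first 8 bases. They are the pair and the 7 relatives miR-15a-5p, miR-15b-5p, miR-16-5p, miR-195a-5p, miR-322-5p, miR-497a-5p and miR-503-5p. Over all 1679 mature sequences the share was 0.774%.

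The relatives together were about as abundant as the pair. miR-16-5p averaged 3982 RPM over the 12 libraries, miR-15b-5p 1365 RPM, miR-195a-5p 783 RPM, miR-497a-5p 248 RPM, miR-15a-5p 235 RPM, miR-322-5p 138 RPM and miR-503-5p 109 RPM. None of the 7 passed the test between genotypes. All 7 had a negative log2 difference, db/db minus WT, with a median of -0.25. Over all 646 rows tested 338 were negative, with a median of -0.04. Of the 7, miR-322-5p (-0.02 ± 0.31), miR-497a-5p (-0.12 ± 0.25) and miR-15b-5p (-0.14 ± 0.17) lay within 1 SE of 0. miR-15a-5p, miR-16-5p, miR-195a-5p and miR-503-5p lay farther out. Whether the 7 rows vary independently was not tested. After median-of-ratios scaling 6 of the 7 were negative, with a median of -0.19, and miR-322-5p stood at 0.04. The value farthest from 0 was that of miR-195a-5p, with a WT mean of 945 ± 193 RPM and a db/db mean of 620 ± 160 RPM (SD, n = 6 per genotype). Its log2 difference was -0.62 ± 0.18 (SE; limma adjusted p = 0.109). With library numbers 1 to 3 against 4 to 6 as a factor it passed (limma adjusted p = 0.0392), while the pair did not (limma adjusted p = 0.862 for miR-103-3p and 0.986 for miR-107-3p). That division was known from earlier results of these data and is no label of the study. The same fit called 10 of the 646 rows, against 1 without the factor, so the pass of miR-195a-5p is no independent support.

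**Figure D4:**
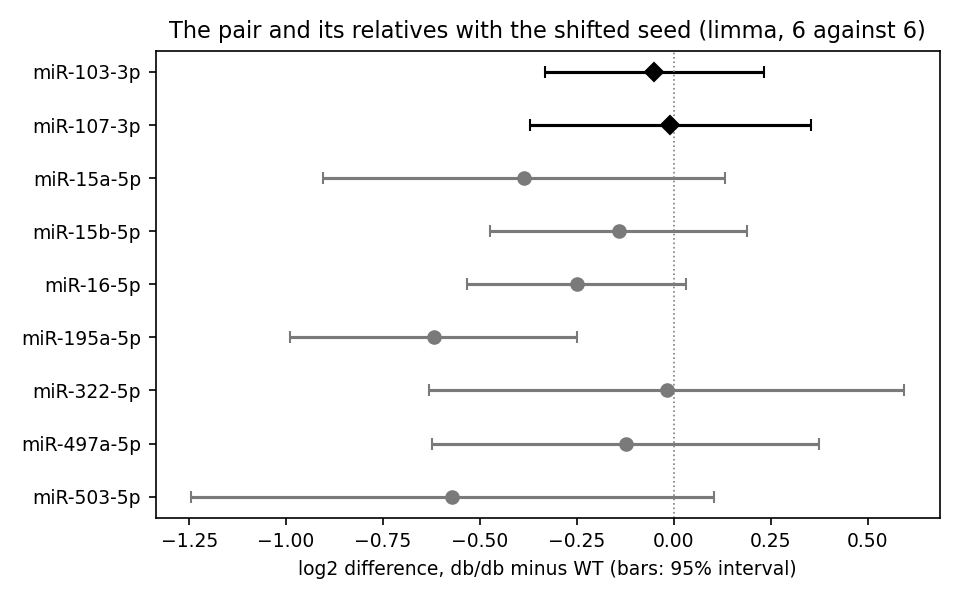
Log2 difference, db/db minus WT, of miR-103-3p and miR-107-3p (black diamonds) and of the 7 relatives with the shifted seed (grey circles), with 95% intervals from limma as bars (6 against 6 libraries, no adjustment for multiple tests). The pair lies at -0.05 and -0.01, and the relatives between -0.62 and -0.02.

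Of the 7 relatives 6 had a lower mean in libraries 1 to 3 than in 4 to 6, with miR-503-5p the exception, and for each of the 7 the ranges overlapped. Over all rows 349 of 646 had a higher mean in 1 to 3. Summed, the relatives reached 5279 to 7214 RPM in libraries 1 to 3 and 5954 to 9227 RPM in 4 to 6, which overlapped. Per read of the pair, the relatives held 1.11 ± 0.395 reads for WT and 0.940 ± 0.317 for db/db (SD, n = 6 per genotype), with overlapping values between the genotypes. By library number this ratio ran from 0.666 to 0.845 in 1 to 3 and from 0.943 to 1.63 in 4 to 6, without overlap. Its denominator holds miR-103-3p, which was divided by number on its own.

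Other miRNAs described in insulin action or glucose metabolism gave the setting for the pair. Of 26 names, 25 were found in the table and 23 passed the filter. limma called 0 of the 23, with 12 positive and 11 negative log2 differences and a median of 0.02, beside -0.04 over all rows. The 6 most abundant were as follows. miR-378a-3p, from an intron of the metabolic coactivator gene Ppargc1b, stood at a log2 difference, db/db minus WT, of -0.10 ± 0.12 (SE). miR-143-3p, known to impair insulin-stimulated AKT activation in liver, stood at -0.48 ± 0.13 (SE; limma adjusted p = 0.0869). miR-26a-5p, which is linked to insulin sensitivity in liver, stood at 0.02 ± 0.12, and the endothelial miR-126a-3p at -0.30 ± 0.14 (SE; limma adjusted p = 0.950 and 0.504). miR-29a-3p, raised in several diabetic tissues, stood at 0.05 ± 0.13, and let-7a-5p, of a family that dampens insulin signalling, at 0.34 ± 0.14 (SE; limma adjusted p = 0.885 and 0.504). miR-320-3p, the other miRNA whose libraries 1 to 3 all lay above 4 to 6, at 616 to 872 against 247 to 574 RPM, had a log2 difference, db/db minus WT, of 0.34 ± 0.22 (SE; limma adjusted p = 0.717). It was the only 1 of the 23 so divided.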

How the data were processed

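The authors deposited 1 table with a column for each of 12 libraries, called TPM. Every column adds up to 1000000, and 100% of the values were whole multiples of 1 read (within 0.01 of a read), whichever the miRNA. The deposited values are therefore RPM, with no length term. Adapters were ligated to both ends of the RNA, per the labels' protocols. Ligation can favour some sequences, so levels of different miRNAs may carry that preference. The submitters' processing notes name the build GRCm39. The sources used here do not give the aligner, the miRNA annotation or the handling of reads that match both miRNAs.

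Genotypes were compared with limma 3.58.1 (R 4.3.3) on log2(RPM + 1), with a variance trend on abundance, for the 646 rows whose mean reached 1 RPM. p-values were two-sided, Benjamini-Hochberg adjusted over all rows and called under 0.05. The design assumed TPM, and its log-scale test was kept. Ratios were compared by exact permutation over 924 assignments. The recovered counts, which the deposited RPM gave back whole, served for tests with DESeq2 1.42.0 and edgeR 4.0.16 (TMM scaling, quasi-likelihood). Named were the pair, its other arms, 7 relatives, the 6 most abundant or any called of the insulin list, the 5 most alike to each, and the neighbours in level. miR-320-3p is named by that likeness. Members, lists, markers and alternatives were chosen with earlier results of these data known; fits within library numbers 1 to 3 and 4 to 6 were added after seeing the data. The fitting code was tested on simulated data. Hairpin positions are those of GRCm38.p6 and were not converted. Python 3.11.15, scipy 1.17.1 and matplotlib 3.10.9 were used.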

Additional observations from a re-analysis of the deposited data

Results flagged for a closer look

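Among 14 groups of 6 values checked for an isolated library, 1 stood out, where chance flags about 1 in 20. The total of db/db library 5, 1382046 reads summed over all rows, lay above the next db/db library, at 773784 reads, by 0.628 of the range of that genotype. In that library miR-103-3p was 5344 RPM and miR-107-3p 772 RPM, inside the range of the other db/db libraries for both.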

How the results depend on the processing

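Neither member of the pair was called under any alternative run: the limma, edgeR and DESeq2 adjusted p lay between 0.774 and 0.998 over 27 alternatives for miR-103-3p and between 0.765 and 0.996 over 26 for miR-107-3p, which has no row of its own when both are summed. The sign was not stable, and the cause was not tested. As log2 differences, db/db minus WT, miR-103-3p turned positive after median-of-ratios scaling (0.010) and by DESeq2 (0.0052), and miR-107-3p after that scaling (0.051), by edgeR (0.073) and DESeq2 (0.082), without WT 4 and db/db 6 together (0.12) and within numbers 1 to 3 (0.018). With 1 library left out miR-103-3p ranged from -0.13 to 0.026, miR-107-3p from -0.080 to 0.13, the log2 ratio of miR-107-3p to miR-103-3p from -0.0082 to 0.12 (lowest without db/db 4, highest without db/db 6; main value 0.04) and their correlation from 0.81 to 0.88. The ratio was -0.023 within numbers 4 to 6, and the correlation 0.20 within 1 to 3. Left out 1 at a time, libraries gave 0 to 7 called rows against 1: dropping WT 1 or WT 3 gave 6, db/db 4 gave 3, db/db 5 gave 7, db/db 6 kept 1, and each of the remaining 7 gave 0. Calls were 0 at pseudocounts of 0.1 and 10 RPM, unfiltered, at a minimum mean of 10 RPM, without a trend, and when WT 4 and db/db 6 were dropped. They were 2 after median-of-ratios scaling, 3 by edgeR, 8 by DESeq2, 10 with library numbers 1 to 3 against 4 to 6 as a factor, and 3 within 4 to 6.

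The replicate block moved the calls to 9 and left miR-103-3p at -0.05 (limma adjusted p = 0.828), miR-107-3p at -0.01 (limma adjusted p = 0.988) and the log2 ratio at 0.04 (exact sign-flip permutation p = 0.688). Same-numbered libraries share only a number: over 6 pairs the correlation of their deviations ran from -0.05 to 0.12, with 1 pair over 0.1, and 1 number matched best with itself. Depth limits the 5p arms, at 32 reads in all. It also limits the balance of the pair in WT, where the ratio varied by 5.93% between libraries beside 4.39% from counting. Between db/db libraries the ratio varied by 17.0% beside 4.67%, so counting was the smaller part there.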
